A study of Mus musculus with 24 samples.

Results

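Flavopiridol was given to T helper cells at a higher and a lower dose, and the genes that differed between 10 µM and 1 µM after 6 hr are described here. The comparison used all 8 flavopiridol arrays of the 24 arrays in the series. They formed 4 pairs, each with 1 array per dose. The 4 contexts were unstimulated Th1, reactivated Th1, unstimulated Th2 and reactivated Th2 cells. Th1 and Th2 cells had been differentiated in vitro from naive CD4+ T cells of female C57BL/6 mice, and the age of the mice is not given in the labels. On every array the sample was labelled with Cy3 and hybridised against Cy5-labelled RNA of naive CD4+CD62L+CD25-CD44lo T cells from lymph nodes and spleens. The 4 DMSO (vehicle) arrays of the same contexts are given beside the doses as levels. They all lay on another slide than the flavopiridol arrays, so in any comparison of a dose with DMSO, treatment and slide cannot be told apart. The Th1 DMSO arrays were taken at 6 hr, whereas the labels of the Th2 DMSO arrays give 24 hr in one field and 6 hr in another. Each condition was a single array from a design with 1 biological replicate, so all tests rest on differences that recurred over the 4 contexts, and the p-values measure the spread between contexts.

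Flavopiridol inhibits cyclin-dependent kinases, among them Cdk9, the kinase of the elongation factor P-TEFb. P-TEFb phosphorylates negative elongation factors and the tail of RNA polymerase II, which releases polymerase that has paused near the start of a gene. When this release is blocked, short-lived mRNAs decay without being replaced, while long-lived mRNAs persist and take up a larger share of what is left. T helper cells make large bursts of new mRNA when they are reactivated, chiefly of cytokines, chemokines and early transcription factors.

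The level of a gene is given as the log2 ratio of the sample to the naive reference after loess normalization, and a difference is the 10 µM level minus the 1 µM level of the same context, averaged over 4 pairs. In the sample channel, 37% to 41.5% of probes were well above background at 1 µM and 35.4% to 38.5% at 10 µM, against 48.8% to 52% on the DMSO arrays. The difference between doses averaged -2.41 percentage points (SD 2.03, n = 4 pairs), and an exact two-sided sign-flip permutation test gave p = 0.25, where 0.125 is the smallest p that 4 pairs allow. Both arrays of a pair lay on 1 slide, but 10 µM and 1 µM arrays always lay in different slide columns, so dose and column cannot be told apart. Nor can cell type and slide, since Th1 pairs lay on one slide and Th2 pairs on another. Reactivation was tied to column as well. Unstimulated pairs lay in columns 4 (1 µM) and 2 (10 µM), and reactivated pairs in columns 3 (1 µM) and 1 (10 µM). A dose difference that depends on reactivation thus cannot be told apart from column. A change in the number of cells of a type and a change in RNA per cell cannot be told apart in such bulk samples.

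The flavopiridol arrays carried the markers of their labels at both doses, with 1 exception. Ifng, the effector cytokine of Th1 cells, stood between 7.60 and 8.15 on the 4 Th1 arrays and between -0.17 and 0.09 on the 4 Th2 arrays. Gata3, the lineage factor of Th2 cells, ranged from -3.30 to -2.59 in Th1 and from -1.13 to -0.72 in Th2 cells. Il4 had 2.83 to 3.62 on the Th2 and 0.18 to 0.28 on the Th1 arrays. Il1rl1, the receptor of IL-33 and the remaining Th2 marker, went the other way, with 4.59 to 5.38 in Th1 and 2.05 to 2.42 in Th2 cells. None of the 6 defining markers of both lineages differed between the doses (adjusted p of 0.0922 or more in limma). Among markers of other cells, 0 of 8 tested for B cells, 0 of 4 for myeloid cells and 0 of 3 for NK and CD8 cells were called. The largest difference among these was in Cd22, at -0.70 (SE 0.21, adjusted p = 0.0623). Cd22 fell by 1.1 and 1.28 in the reactivated Th1 and Th2 pairs and by 0.14 and 0.25 in the unstimulated ones.

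Of 10936 genes tested with limma, 1446 were higher at 10 µM (13.2%) and 591 were lower (5.4%), 18.6% in all. Most of these differences were modest. The median was 0.56 over the genes called higher and -0.47 over those called lower, and 158 and 40 genes respectively reached 2-fold. A stricter count with no test, of genes at least 2-fold apart in the same direction in 4 of 4 pairs, held 58 genes that were higher (0.53%) and 14 that were lower (0.128%). Without the Th2 unstimulated pair 1011 genes were called in all, without the Th1 reactivated pair 1195, and with no block for context 241. All 4 pairs went the same way for 1444 of the genes called higher and for all 591 called lower. The spread of differences over genes was wider in Th2 reactivated cells (SD 0.52) than in Th1 unstimulated cells (SD 0.34). In these pairs 385 and 143 genes respectively were at least 2-fold higher, and 290 and 50 at least 2-fold lower. Across genes, which are not independent replicates, differences correlated between pairs with Pearson's r of 0.44 to 0.75, lowest for Th1 unstimulated against Th2 reactivated cells and highest for the reactivated pairs.

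**Figure D1:**
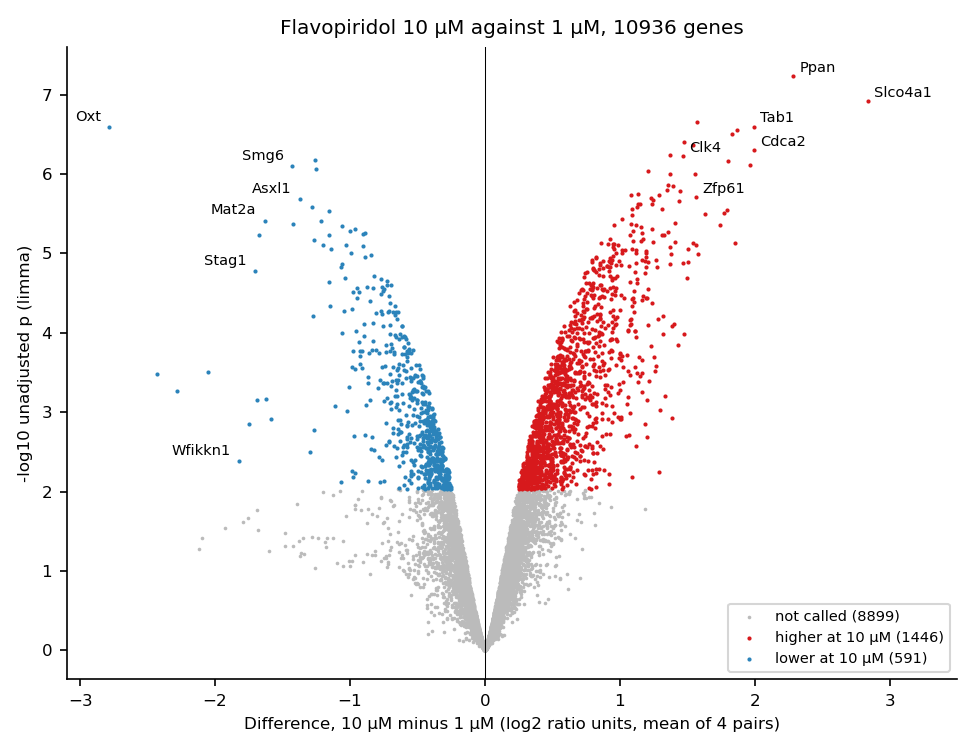
Each point is 1 of 10936 genes, with the mean difference of 4 pairs (10 µM minus 1 µM, log2 ratio units) on the horizontal axis and -log10 of limma's unadjusted p on the vertical axis. The 1446 genes called higher are red and the 591 called lower are blue; Slco4a1 lies farthest right at 2.84 and Oxt farthest left at -2.78.

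The balance between higher and lower genes depended on how the arrays were scaled. Loess sets the bulk of genes to the same level on every array, and here the median difference of all genes was 0.03. Added spike-in RNA, after the same loess, stood 0.19 higher relative to the genes at 10 µM than at 1 µM (SD 0.12), in 4 of 4 pairs (exact two-sided sign-flip permutation p = 0.125, the smallest possible). Without loess, relative to the gene median, the spike-in difference averaged 0.12 (SD 0.28, exact permutation p = 0.5), with -0.09 and -0.13 in the unstimulated and 0.23 and 0.47 in the reactivated pairs of Th1 and Th2 cells. With loess followed by a shift to equal spike-in levels, the median moved to -0.155, and 665 genes were higher and 1643 lower. Spike-in centring without loess gave 359 and 1117 at a median of -0.20, and median centring 547 and 744 at a median of -0.08. The sample channel, taken after the same loess and so not independent of it, gave 1365 and 712. All differences below are relative to the loess scale.

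**Figure D2:**
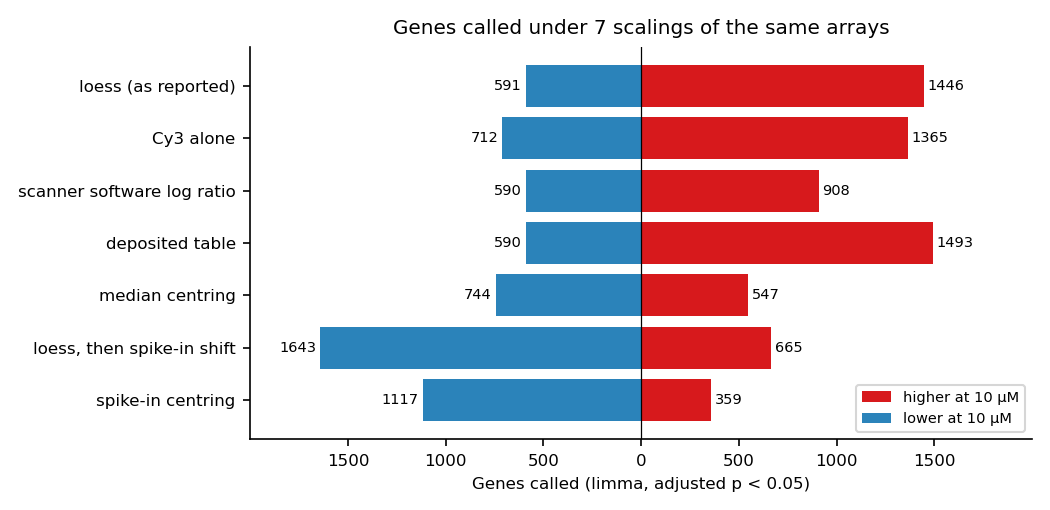
Horizontal bars count the genes called by limma (adjusted p below 0.05) as higher (red, to the right) or lower (blue, to the left) at 10 µM, for 7 scalings of the same 8 arrays. Higher genes outnumber lower ones with loess (1446 and 591), and the order turns with median centring and both spike-in scalings.

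Most of the largest increases at 10 µM were in genes whose 1 µM levels lay below DMSO, a pattern that choosing large increases favours. Slco4a1, a transporter of the organic anion family, had levels of 3.59, 5.62, 3.82 and 5.43 on the DMSO arrays of Th1 unstimulated, Th1 reactivated, Th2 unstimulated and Th2 reactivated cells. In the same order it had 0.65, 0.58, 1.51 and 2.20 at 1 µM and 3.36, 3.30, 4.78 and 4.85 at 10 µM. Every 10 µM array thus lay above every 1 µM array and within or just under the range of DMSO. The difference was 2.84 (SE 0.12, 7.15-fold, adjusted p = 0.000492). Ppan, a factor of large ribosomal subunit assembly, had -3.88, -3.55, -2.90 and -2.82 at 1 µM and -1.42, -1.48, -0.57 and -0.55 at 10 µM, a difference of 2.28 (SE 0.09). Its DMSO levels of -1.72, 1.55, -2.08 and 1.79 followed reactivation, which its levels at 1 µM and 10 µM did not.

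Cell division genes were among the 12 genes with the largest increases. Cdca2, which targets protein phosphatase 1 to chromatin in mitosis, had 0.92, 0.62, 0.56 and 0.25 at 1 µM and 2.68, 2.52, 2.57 and 2.57 at 10 µM, in the same order of contexts. Its DMSO levels ran from 3.57 to 4.48, above both doses. Aunip, a partner of the mitotic kinase Aurora A, differed by 1.97 (SE 0.11), and E2f8, a repressor among the E2F factors, by 1.80 (SE 0.12). Their 10 µM levels of 2.57 to 2.93 and 2.94 to 3.14 lay between 1 µM and DMSO without touching either. Tedc1, a centriole protein, differed by 1.74 (SE 0.13), and its 10 µM levels of 2.71 to 2.96 overlapped DMSO at 2.61 to 3.30.

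The rest of the 12 had varied roles. Tab1, a partner of the kinase TAK1, differed by 1.99 (SE 0.09), and Traf2, an adaptor of TNF receptors, by 1.83 (SE 0.09). Ifngr1, a chain of the interferon gamma receptor, had -2.86, -2.78, -3.43 and -3.28 at 1 µM and -1.0, -0.75, -1.64 and -1.77 at 10 µM, a difference of 1.80 (SE 0.10). Cactin, an inhibitor of NF-κB signalling and a splicing-associated protein, differed by 1.87 (SE 0.09) and Trim11, a ubiquitin ligase, by 1.77 (SE 0.12). Arhgef39, a guanine nucleotide exchange factor, differed by 1.85 (SE 0.15). In all 12 genes the 4 arrays at 10 µM lay above those at 1 µM, as they did in 7.67% of 10914 genes with a value on every array, but these genes were chosen for that difference. In 11 of the 12, every 1 µM array lay below every DMSO array, against 27.4% of all genes, and Arhgef39 was the exception. Choosing large increases favours low levels at 1 µM.

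**Figure D3:**
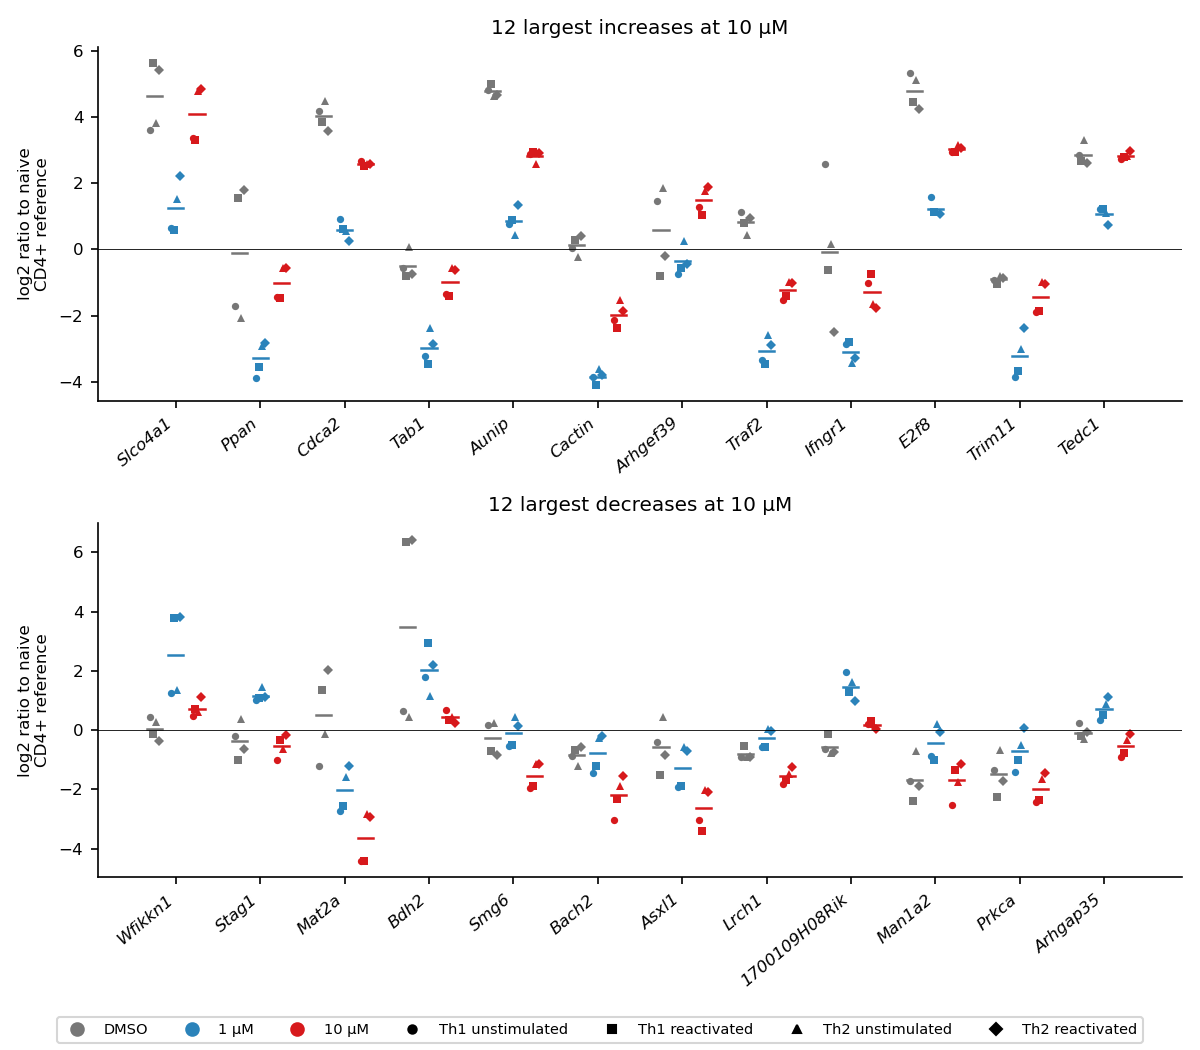
Points give the level (log2 ratio to the naive CD4+ reference) of the 12 genes with the largest increase (top) and the 12 with the largest decrease (bottom), for DMSO (grey), 1 µM (blue) and 10 µM (red), with a symbol per context and a bar at the mean of 4 arrays. The red and blue points do not overlap in any of the 24 genes; Slco4a1 goes from a mean of 1.24 at 1 µM to 4.07 at 10 µM and Mat2a from -2.02 to -3.65.

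Genes that were lower at 10 µM included several whose 1 µM level was at or above DMSO. Stag1, a subunit of cohesin, had DMSO levels of -0.20, -1.0, 0.37 and -0.65. It had 1.00, 1.08, 1.47 and 1.12 at 1 µM, above every DMSO array, and -1.01, -0.33, -0.64 and -0.18 at 10 µM. The difference was -1.70 (SE 0.15, 3.26-fold, adjusted p = 0.00125). Smg6, an endonuclease of nonsense-mediated decay, had -0.54, -0.50, 0.46 and 0.15 at 1 µM, which overlapped DMSO, and -1.97, -1.88, -1.15 and -1.14 at 10 µM, which lay below it. Bach2, a repressor that restrains effector differentiation of T cells, differed by -1.42 (SE 0.10). Its 10 µM levels of -3.04 to -1.55 lay below all DMSO levels, which were -1.23 to -0.57. Asxl1, a partner of the histone H2A deubiquitinase Bap1, differed by -1.37 (SE 0.09).

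Mat2a, which makes S-adenosylmethionine, stepped down at both doses. Its levels were -1.23, 1.34, -0.12 and 2.04 with DMSO, -2.72, -2.55, -1.60 and -1.21 at 1 µM, and -4.42, -4.43, -2.82 and -2.94 at 10 µM. The difference between the doses was -1.63 (SE 0.12, adjusted p = 0.000912). Other decreases fell on Prkca, protein kinase C alpha (-1.26, SE 0.10), on Arhgap35, a GTPase-activating protein (-1.26, SE 0.07), on Lrch1 (-1.28, SE 0.09) and on Man1a2, a mannosidase of the Golgi (-1.27, SE 0.25). Wfikkn1 and Bdh2 were called at -1.82 (SE 0.43) and -1.58 (SE 0.29), with wide spread: Wfikkn1 fell by 3.10 and 2.68 in the reactivated pairs and by 0.77 and 0.74 in the unstimulated pairs. The remaining member of the 12 was 1700109H08Rik, a gene without an assigned role, at -1.27 (SE 0.14). In 4 of the 12, every 1 µM array lay above every DMSO array, namely Stag1, Wfikkn1, Arhgap35 and 1700109H08Rik, against 12.9% of all genes. Choosing large decreases favours high levels at 1 µM.

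The promoters of 3 genes from both ends of the comparison are shown to give the start-site sequence of genes that moved opposite ways. They are read 5′ to 3′ from RefSeq (GRCm38.p6), with 250 bases before and 50 after the annotated start. Capitals mark GGGCGG or its reverse complement CCGCCC, the core of a GC box, and TATAAA, the core of a TATA box. Slco4a1 (chr2:180455995-180456294, plus strand; 1 of 2 annotated starts) and Clk4 (chr11:51262864-51263163, plus strand) were higher at 10 µM, and Mat2a (chr6:72439507-72439806, minus strand) was lower.
Slco4a1: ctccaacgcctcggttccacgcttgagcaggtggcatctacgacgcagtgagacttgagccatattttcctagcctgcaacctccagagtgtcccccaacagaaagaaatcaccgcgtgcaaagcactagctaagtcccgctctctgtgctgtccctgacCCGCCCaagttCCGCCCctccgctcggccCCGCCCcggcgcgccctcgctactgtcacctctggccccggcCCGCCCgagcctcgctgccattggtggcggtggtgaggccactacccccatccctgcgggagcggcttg
Clk4: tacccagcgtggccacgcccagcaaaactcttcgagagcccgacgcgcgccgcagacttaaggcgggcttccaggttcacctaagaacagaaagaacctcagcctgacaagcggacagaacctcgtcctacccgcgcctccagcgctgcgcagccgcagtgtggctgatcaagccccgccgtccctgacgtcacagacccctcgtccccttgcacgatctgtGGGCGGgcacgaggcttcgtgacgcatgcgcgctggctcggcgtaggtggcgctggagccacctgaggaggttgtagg
Mat2a: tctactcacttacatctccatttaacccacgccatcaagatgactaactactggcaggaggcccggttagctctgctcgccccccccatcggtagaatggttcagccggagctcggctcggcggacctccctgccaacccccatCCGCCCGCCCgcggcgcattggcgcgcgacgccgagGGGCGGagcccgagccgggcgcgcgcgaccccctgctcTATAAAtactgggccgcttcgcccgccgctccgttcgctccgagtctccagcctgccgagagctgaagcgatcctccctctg
Each of the 3 holds a GC box, and Mat2a alone holds TATAAA. Of the genes called higher, 1179 matched a RefSeq promoter (81.5%). On either strand, 4.35% of their 1518 promoters held TATAAA, against 7.64% of the 11222 promoters of all genes tested, and 64.8% against 60.8% held GGGCGG. The AP-1 site TGACTCA was in 3.23% against 3.81% and the E-box CACGTG in 10.5% against 10.1%. For genes called lower the check is void, since 77.7% had a promoter in the table, under the 80% required.

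Of 35 genes of P-TEFb and the elongation machinery tested, 4 were higher (11.4% against 13.2% over all genes) and 6 lower (17.1% against 5.4%) at 10 µM, with a median of -0.06 against 0.03 over all genes. Cdk9 had -1.68, -1.56, -1.14 and -1.1 at 1 µM and -1.12, -1.18, -0.53 and -0.54 at 10 µM, a difference of 0.53 (SE 0.08, adjusted p = 0.00563). All 8 levels were below DMSO, at 0.08 to 0.46. Leo1, a subunit of the PAF complex, differed by 1.02 (SE 0.07) and Nelfa, a subunit of the negative elongation factor NELF, by 0.72 (SE 0.09). Cdk13, another kinase of the polymerase tail, and Brd3, a BET protein, fell by 0.63 (SE 0.08) and by 0.75 (SE 0.13). Under the 6 other scalings more of this list were lower than higher in 5 and as many in 1. Of 28 Mediator subunits, with shares near those of all genes (10.71% higher and 7.14% lower), 3 were higher, among them Med17 (0.55, SE 0.08) and Med4 (0.54, SE 0.08). Lower were 2, Med27 (-0.89, SE 0.08) and Med22 (-0.48, SE 0.09). Med17 was well above background on only 1 of 4 arrays at 1 µM.

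Clk1, Clk2 and Clk4, Cdc2-like kinases that phosphorylate SR splicing factors, were called higher at 10 µM. Clk4 had -2.68, -3.36, -1.81 and -2.18 at 1 µM and -1.40, -1.82, -0.25 and -0.67 at 10 µM, while DMSO gave -0.59, -0.88, -0.69 and -0.95. The difference was 1.47 (SE 0.08, adjusted p = 0.00054), and the levels at 10 µM overlapped those of DMSO and, by a single Th2 array at 1 µM, those of 1 µM. Clk1 differed by 1.30 (SE 0.23) and Clk2 by 0.90 (SE 0.15). With Srsf6 (0.51, SE 0.09) they were the 4 members called higher of 28 tested SR and core splicing factors (14.3%, near the 13.2% over all genes), and Snrpb was the 1 called lower. The list's median was 0.06.

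In ribosome biogenesis 13 of 39 genes were called higher (33.3% against 13.2% over all genes) and 1 lower. This was the highest share among the lists under 6 of 7 scalings, but not with the scanner software's ratio, where 5 of 39 were higher against 5 of 28 splicing factors and 28 of 184 Zfp genes. Its median was 0.16 against 0.03 over all genes. Wdr43 (1.11, SE 0.13), Nop56 (0.95, SE 0.09), Nop58 (0.93, SE 0.18) and Wdr75 (0.82, SE 0.14) belong to the small-subunit processome or the box C/D nucleolar particles. Nop56 had -1.52, -1.47, -1.47 and -1.42 at 1 µM and -0.55, -0.73, -0.26 and -0.57 at 10 µM, and DMSO levels of 0.13, 1.73, -0.27 and 1.79. The count of higher members was 5 to 14 over 7 scalings, and that of lower ones 1 to 3. By context the list's median was -0.02 and 0.09 in Th1 and 0.39 and 0.36 in Th2 cells, unstimulated and reactivated. Of the cytosolic ribosomal proteins themselves, 0 of 82 were called by limma, with differences of -0.20 (Rpl21) to 0.17 (Rps29).

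Zinc finger genes named Zfp gave 39 higher and 7 lower of 184 tested, 21.2% against the background of 13.2%, with a median of 0.08. Zfp61 had -2.62, -2.56, -1.89 and -2.13 at 1 µM and -1.38, -0.91, -0.28 and -0.36 at 10 µM, a difference of 1.57 (SE 0.10), and DMSO levels of -0.65 to 0.23. Zfp263, Zfp212 and Zfp7 differed by 1.54 (SE 0.12), 1.36 (SE 0.10) and 1.18 (SE 0.09). With spike-in centring the count became 9 higher and 14 lower, and with loess and a spike-in shift 18 and 20. Zfp genes are similar in sequence, and cross-hybridization between them was not tested.

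The shares called higher were 11.4% in DNA replication, below the 13.2% over all genes, and 21.1% in mitosis and 20.8% in cholesterol synthesis. Of 44 DNA replication genes, 5 were higher, led by Mcm10 (1.12, SE 0.14), Cdc6 (0.95, SE 0.10) and Ccne1 (0.73, SE 0.15), and 2 were lower, among them Pola1, the catalytic subunit of DNA polymerase alpha (-0.85, SE 0.14). Of 38 mitotic genes, 8 were higher, led by Ccnb1 (0.83, SE 0.19), Cdk1 (0.77, SE 0.21), Ncaph (0.73, SE 0.18) and Prc1 (0.63, SE 0.09), and 3 were lower. For mitosis the order turned to 1 and 3 with median centring, 0 and 5 with spike-in centring, and 4 and 6 with loess and a spike-in shift, and for replication it turned under 1 of 7 scalings. Of 24 cholesterol genes, 5 were higher and 0 lower, among them Sqle, an early rate-controlling enzyme (1.07, SE 0.09), Msmo1 (0.80, SE 0.17), Fdft1 (0.66, SE 0.10) and Hmgcs1 (0.58, SE 0.13). Between 2 and 5 were higher and 0 lower under all 7 scalings.

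The stress lists had 6.25% to 10% of members called higher, below the 13.2% over all genes, and 6.25% to 12% called lower against 5.4%, over heat shock, unfolded protein and p53 genes. Of 32 heat shock genes, Hsf1 (0.63, SE 0.12) and Hsf2 (0.74, SE 0.12), the factors that switch on the response, were higher. The chaperones Hspa1a (-0.87, SE 0.23) and Dnajb6 (-0.82, SE 0.18) were lower. Hspa1a was well above background on 3 of 4 arrays at 1 µM and 2 of 4 at 10 µM, so its size is uncertain. Of 30 genes of the unfolded protein and integrated stress response, 3 were higher, among them Xbp1 (0.78, SE 0.13) and Herpud1 (0.46, SE 0.12), and 2 lower, Atf6 (-0.98, SE 0.13) and Atf4 (-0.45, SE 0.11). Of 25 p53 targets, 2 were higher, Fas (0.46, SE 0.12) and Sesn1 (0.39, SE 0.10), and 3 lower, among them Polk, a translesion polymerase (-1.07, SE 0.28). Pmaip1, which encodes the death-promoting protein Noxa, fell by 0.98 (SE 0.24), and Bcl2, which opposes cell death, rose by 0.71 (SE 0.10), as the only members called of 13 in the Bcl2 family (7.69% in each direction, against 13.2% and 5.4% of all genes). Bcl2 levels were -0.26, -0.39, 0.63 and 0.79 at 1 µM and 0.31, 0.18, 1.68 and 1.44 at 10 µM, and -0.65 to -0.34 with DMSO. Of 15 Nrf2 and aryl hydrocarbon receptor targets, Txnrd1 alone was called (-0.42, SE 0.10).

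In the lists of T helper genes the share called higher was 17.4% (Th1), 16.7% (Th2) and 17.6% (activation), near the 13.2% over all genes, and 0 members were called lower. The calls average over 4 pairs. In the reactivated Th1 and Th2 pairs, 3 and 2 Th1 genes were at least 2-fold lower. So were 1 and 1 Th2 genes and 2 and 2 activation genes. In the unstimulated pairs 0 were, but a member at background could not fall there. Over all genes such falls made up 1.35% and 2.65% in the reactivated pairs. A contrast with reactivation, given below, was called for 2 Th1 genes, 0 Th2 genes and 1 activation gene, Ccl4 and Il21 among them. Of 23 Th1 genes, 4 were higher and 0 lower, namely Stat4 (0.92, SE 0.23), Furin (0.53, SE 0.07), Lta (0.50, SE 0.09) and Runx3 (0.32, SE 0.09). The Stat4 value rests on 3 pairs, because a spot was flagged in the Th1 reactivated pair. Runx3 was well above background on only 2 of 4 arrays at 1 µM. Of 18 Th2 genes, Gfi1 (0.94, SE 0.09), Il4ra (0.50, SE 0.12) and Nfil3 (0.43, SE 0.09) were higher and 0 lower. Il7r, the IL-7 receptor of resting T cells, had -3.49, -3.63, -3.70 and -4.06 at 1 µM and -2.82, -2.85, -2.10 and -2.28 at 10 µM, a difference of 1.21 (SE 0.20). Csf1 and the costimulatory receptor Tnfrsf4 (OX40) were the others called among 17 activation genes, at 0.38 (SE 0.08) and 0.32 (SE 0.07). Th1 genes had no more higher than lower calls under 3 of 7 scalings, Th2 genes under 2 and the activation genes under 3.

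Of 324 tested genes nearest to T-bet super-enhancers, 40 were higher (12.3%, near the 13.2% over all genes) and 31 lower (9.57% against 5.4%), with a median of -0.01, and more were lower than higher under 5 of 7 scalings. Among called members besides Bach2, the largest differences were in Sla, an adaptor that restrains T cell receptor signalling (1.37, SE 0.11), Cish (1.34, SE 0.22) and Traf1 (1.24, SE 0.16). This list was chosen in the study from chromatin data of Th1 cells.

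Several further groups had few calls. In the respiratory chain, proteasome, glycolysis, interferon, small RNA and histone lists, 0% to 10% of members were called higher and 0% to 5.41% lower, against 13.2% and 5.4% of all genes. Of 79 nuclear-encoded respiratory chain genes, 0 were called higher and 1 lower. Of 32 proteasome subunits, Adrm1 (0.92, SE 0.08) and Psmd7 (0.80, SE 0.20) were higher, and of 20 glycolytic genes Slc2a1 was higher (0.68, SE 0.11) and Hk2 lower (-0.59, SE 0.08). With the scanner software's own ratio Hk2 came out at 0.15. Of 30 interferon-stimulated genes, Irgm1 (0.33, SE 0.09) and Gbp4 (-0.32, SE 0.07) were called, and of 10 small nuclear and nucleolar RNAs Snora47 (0.47, SE 0.10). Replication-dependent histones had a median of -0.18, with 2 of 37 called lower, H2bc18 (-0.48, SE 0.11) and H3c4 (-0.36, SE 0.08). The count of histones called lower was 2 to 15 over 7 scalings, with 11 under spike-in centring and 15 under loess with a spike-in shift. Their median was -0.35 and -0.29 in the unstimulated pairs and 0.01 and -0.07 in the reactivated pairs of Th1 and Th2 cells. Igfbp4 and Drc1, which stood at 2.17 and 2.98 at 1 µM and at -2.08 and -1.31 with DMSO on average, differed by 0.06 (SE 0.07) and -0.02 (SE 0.08) between the doses. Dusp2 differed by -0.43 (SE 0.37, adjusted p = 0.474), with -2.07 in Th2 reactivated cells and 0.02 to 0.18 in the other contexts.

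**Figure D4:**
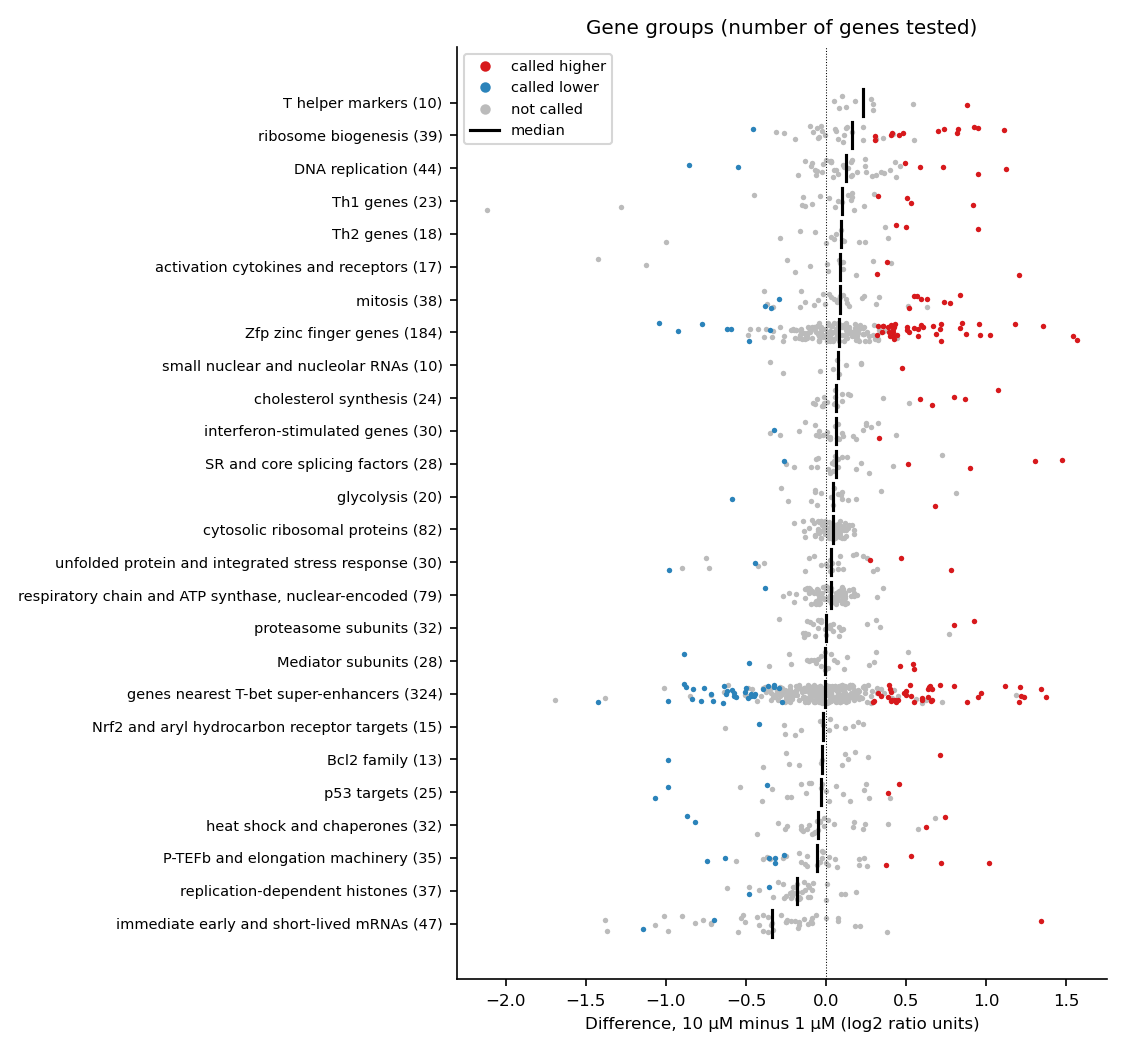
Each point is a gene of a list, with its mean difference (10 µM minus 1 µM, log2 ratio units, 4 pairs) on the horizontal axis and the number of genes tested in brackets; red and blue points were called higher and lower and the black bar is the median. Ribosome biogenesis has a median of 0.16 and immediate early genes one of -0.34, the lowest of the lists shown.

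The dose difference depended on reactivation for a small set of genes, many of them near background in unstimulated cells. The difference between doses was more negative in reactivated than in unstimulated cells for 53 of 10936 genes (0.485%) and more positive for 0, in a limma contrast over the 4 pairs. All 53 were higher in reactivated than in unstimulated cells at 1 µM, in both cell types. The same held for 22.6% of 10914 genes with a value on every array, and the level at 1 µM is part of the contrast that chose the 53, so nothing is read from it. Of the 53, 26 were well above background on fewer than 3 unstimulated arrays, 11 of them on none, and so were tested only because they were high in reactivated cells. On all 8 arrays 21 were well above background. Among genes well above background on all 8 arrays, refitted alone, 2 were called. Of the full 53, 47 were at least 2-fold lower at 10 µM than at 1 µM in both reactivated pairs. Over all genes such falls made up 1.35% and 2.65% in the single reactivated pairs. None of the 53 was so in both unstimulated pairs. The same pair differences chose the 53, so nothing is read from these counts. Of the markers of other cells, Cd22 (B cells) and Itgam (myeloid cells) moved alongside, with contrasts of -0.99 (SE 0.15, adjusted p = 0.0740) and -0.97 (SE 0.14, adjusted p = 0.0698). The median difference of the 8 B cell markers was -0.04 and 0.18 and that of the 4 myeloid markers 0.00 and 0.07 in the reactivated Th1 and Th2 pairs. Their part in the result was not tested. The number of genes called was unstable: it was 2 without the Th2 unstimulated pair, 3 without the Th1 unstimulated pair and 158 without the Th1 reactivated pair, and 0 with the scanner software's ratio.

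Ccl4, a chemokine of activated T cells, led this set. In reactivated Th1 cells it went from 10.09 with DMSO to 7.72 at 1 µM and 4.08 at 10 µM, and in reactivated Th2 cells from 9.20 to 6.19 and 1.11. In unstimulated cells it stood at 1.53 and 1.57 in Th1 and at -0.10 and 0.11 in Th2 cells at 1 µM and 10 µM. The fitted contrast was -4.48 (SE 0.45, adjusted p = 0.0342), but Ccl4 was well above background on only 2 of the 4 unstimulated arrays, so its size is uncertain. For Nfkbid, a nuclear IκB protein, the difference had opposite signs in the unstimulated and the reactivated state. It rose by 1.92 and 1.44 in unstimulated Th1 and Th2 cells and fell by 2.24 and 2.80 in reactivated ones, a contrast of -4.20 (SE 0.26, adjusted p = 0.0213). It was well above background on all 8 arrays.

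For some genes, reactivated cells at 1 µM exceeded DMSO. Ptgs2, the inducible cyclooxygenase, stood at 2.13 and 2.69 in reactivated Th1 and Th2 cells with DMSO, at 3.91 and 6.89 at 1 µM, and at 0.18 and 2.32 at 10 µM. Its fitted contrast was -4.10 (SE 0.28, adjusted p = 0.0213), in which the size of the unstimulated difference is not measured, since it was not well above background on any unstimulated array and so on 1 of the 2 reactivated arrays at 10 µM. In all, 26 of the 53 genes were above DMSO at 1 µM in both reactivated cell types, as were 34.4% of 10914 genes. The choice of the 53 favoured high levels there. These included Hdc, which makes histamine, at 3.41 and 4.51 against DMSO levels of 0.30 and 0.09, and Apom, at 3.46 and 5.16 against 0.43 and 0.14. At 10 µM Hdc had 0.07 and 1.39. Both genes were picked after their values were seen, as were those of the next paragraph.

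Among the set were several genes known from T cell activation. Cd69, an early activation receptor, had 1.11 and 1.35 in reactivated cells at 1 µM, close to the DMSO levels of 0.99 and 1.09, and -1.90 and -1.16 at 10 µM. In unstimulated cells at either dose it ran from -2.65 to -2.53. The cytokines Il21, Il11, Il17f and Tnf, the chemokine Cxcl10 and the growth factor Hbegf were in the set. So were the early response genes Egr1, Egr2, Nr4a1, Arc and Cebpd, and the regulators Nfkbia, Spry1, Gadd45b and Ddit4. With DMSO some of these rose on reactivation, such as Egr2, from 0.32 to 3.70 in Th1 and from -1.59 to 4.05 in Th2 cells. Others fell: Ddit4 from 0.95 to -1.89 and from 0.22 to -3.68, and Cebpd from 3.86 to 2.76 and from 1.47 to 1.24. Ppp1r27, a further member of the set, stood at -0.18 to -0.02 on the 4 DMSO arrays. Tnf went from 2.79 to 0.66 in reactivated Th1 and from 3.99 to 1.11 in reactivated Th2 cells. Rnf19b was the 1 gene of the set that did not fall in reactivated cells; it was higher at 10 µM by 1.93 and 2.29 in the unstimulated pairs and by 0.18 and 0.33 in the reactivated pairs.

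**Figure D5:**
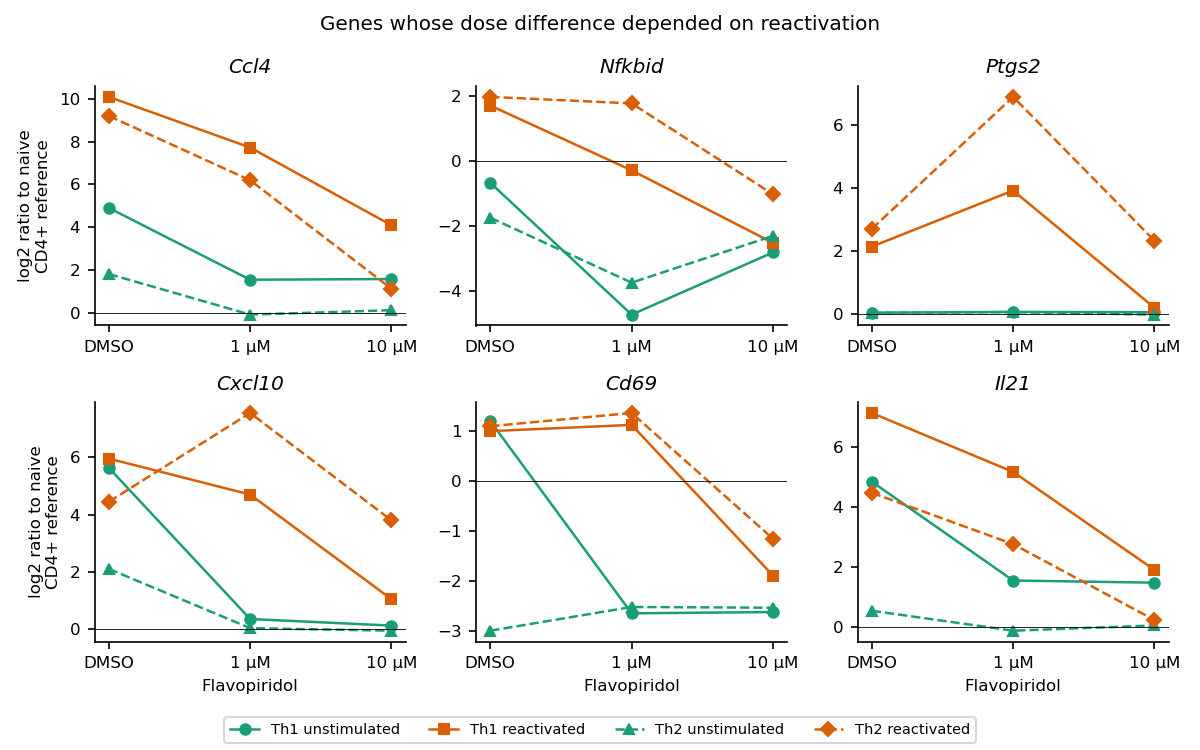
Lines join the level (log2 ratio to the naive CD4+ reference) of a gene with DMSO, at 1 µM and at 10 µM, 1 array per point, for unstimulated (green) and reactivated (orange) Th1 (solid) and Th2 (dashed) cells. All 6 genes fall from 1 µM to 10 µM in reactivated cells, Ccl4 by 3.64 and 5.08, while in unstimulated cells Nfkbid rises by 1.92 and 1.44. The other 5 genes were at or near background on some or all unstimulated arrays, where a fall cannot be seen.

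Over the list of 47 tested immediate early and short-lived mRNAs, the difference between doses had a median of 0.15 and -0.01 in unstimulated and of -0.56 and -0.76 in reactivated Th1 and Th2 cells. At least 2-fold decreases numbered 0 and 1 in the unstimulated and 13 and 21 in the reactivated pairs. Over all genes they made up 0.458% and 0.512% in the unstimulated and 1.35% and 2.65% in the reactivated pairs. Of the 47, 25 were well above background on all 8 arrays, and a member at background in unstimulated cells could not fall there. The contrast with reactivation was called for 7 members, against 0.485% of all genes, a count that includes genes tested only because they were high in reactivated cells. Over the 4 pairs together, 1 member was higher (2.13% against 13.2% of all genes) and 2 were lower (4.26% against 5.4%). The higher one was Cish, a feedback inhibitor of cytokine signalling, and the lower ones were Zfp36l2, which promotes mRNA decay (-1.14, SE 0.09), and Klf6 (-0.70, SE 0.12). The median of the list was lower than that of all genes by 0.36 to 0.53 under 7 scalings, and 2 to 26 members were called lower.

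No gene passed for a dose difference that depended on cell type in limma, while 1162 had an unadjusted p under 0.05, and the smallest adjusted p was 0.282. Several genes shared it, and the one with the lowest unadjusted p was Efna5, an ephrin ligand that stood near 0 on all Th1 arrays at both doses, with differences of 0.21 and 0.02 in Th1 and of -1.23 and -1.27 in Th2 cells, unstimulated and reactivated. With median centring 196 genes passed and with loess and a spike-in shift 17. The cause of this dependence on scaling was not tested.

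Some transcripts were well above background at one dose only. Among 20028 genes, 25 were so on 4 of 4 arrays at 1 µM and 0 of 4 at 10 µM, and 11 the other way round. All 11 were called by limma, but many of the 25 were not. Stxbp4 and Zfp617, for example, barely differed, at 1.01-fold and 1.07-fold (limma's adjusted p = 0.408 and 0.950). The 25 and 11 thus do not compare as numbers of genes that differed. Ordered by fold, Gas6 came first at 1 µM, at least 3.09-fold brighter, but it was not called (limma's adjusted p = 0.0947). Cited1 followed and was called, at least 2.94-fold brighter (adjusted p = 0.000956). Skor1 was at least 2.47-fold brighter (adjusted p = 0.00957), and Il17f at least 2.15-fold (adjusted p = 0.0248). At 10 µM, Troap, a spindle protein, and Zfp429 were at least 1.75-fold and 1.71-fold brighter (adjusted p = 0.00105 and 0.00503). The folds rest on signals not well above background at the dimmer dose, so their size is uncertain. Among called genes above background on fewer than 8 arrays, Oxt, which encodes oxytocin, had 2.14, 3.13, 3.10 and 3.94 at 1 µM and -0.21, 0.30, -0.06 and 1.15 at 10 µM. It was well above background on 4 and 2 of 4 arrays, and at -0.39 to 0.00 with DMSO. The fitted difference of Oxt was -2.78. AW209491 and Tfcp2l1 (-2.43 and -2.28) were well above background on 4 arrays at 1 µM and 1 at 10 µM. Kcnk5 and Zmym1 (1.38 and 1.23) were so on 2 and 4 arrays and Il6st (1.22) on 3 and 4. These fits include values not well above background, so their size is uncertain.

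On the loess scale, probes that the array names by genome position alone, without a gene, leaned the other way from genes. The lean of genes turned under other scalings, and these probes were not refitted there. Of 3601 tested, 48 were higher at 10 µM (1.33%) and 140 lower (3.89%), with a median of -0.01. The 140 lower probes lay in 68 of the named regions and the 48 higher ones in 32, so many probes shared a region. The largest decrease was at chr5:54053882-54054174 (mm9), with 3.44, 2.84, 3.61 and 3.51 at 1 µM and 0.65, 1.16, 1.33 and 1.49 at 10 µM. DMSO gave 0.41, 1.61, 1.01 and 1.42 there, within or near the 10 µM levels. The difference was -2.19 (SE 0.17, adjusted p = 0.000913), and another probe of that region gave -1.58. At chr8:119092623-119094219 (mm9), 3 probes differed by -1.76, -1.56 and -1.54. At chr2:158169020-158191295 (mm9), 3 probes were higher, by 1.25, 1.1 and 1.02. Annotation of the same build was not used here, so it is not said what lies in these regions.

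The naive reference on the same arrays served as a control for differences that did not come from the treated cells. In the Cy5 channel, taken after the same loess, 1 of 12519 genes (0.00799%) differed between the 10 µM and 1 µM arrays in limma. An unadjusted p under 0.05 was seen for 987. That gene was Lrrc32, higher by 1.13 (SE 0.06, adjusted p = 0.000194) in the reference, and its ratio, which was called at 0.56, rests on a reference that moved. Over the 2037 genes called, the size of the reference difference had a median of 0.04 against 0.54 for the ratio. It exceeded 50% of the ratio difference in 19 of them. The pairs' reference differences correlated with r of 0.01 to 0.14 across genes.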

How the data were processed

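RNA of T helper cells (Cy3) was hybridised with RNA of naive CD4+ T cells (Cy5) to dual-colour Agilent arrays, with no dye swap. The authors scanned the arrays with Agilent Feature Extraction 10.7.1.1 (grid mm9), and the median spot and background intensity of both channels was used as deposited. The scanner software's log10 ratio (Cy5 over Cy3), per the file headers, and the authors' normalized log2 ratios for 34710 probes, as deposited, served as alternatives. The correlation of the authors' log2 ratios with the values used here was 0.981 to 0.996 over the 24 arrays.

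Intensities were corrected by normexp (offset 50), loess-normalized within each array with control spots at weight 0, and expressed as log2 of Cy3 over Cy5 (limma 3.58.1, R 4.3.3). Spots flagged as outliers, 286 to 331 on the 8 arrays, were left out. The brightest probe stood for each of 20028 symbols given in the files, and genes well above background in Cy3 on at least 3 of 8 arrays were tested. lmFit and eBayes compared the 4 arrays of each dose with context as a block (3 residual degrees of freedom), and p-values were Benjamini-Hochberg adjusted over all genes tested, at a threshold of 0.05. Dependence on reactivation or cell type was tested as a contrast between pair differences (2 residual degrees of freedom). Array-level values were compared by exact sign-flip permutation. Simulated data with 4 pairs and 10918 genes gave back 58.2% of genes changed 1.5-fold, 88.1% of those changed 2-fold and 98.5% of those changed 4-fold, with 4 unchanged genes called.

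Genes named were the 12 largest called differences in each direction among genes above background on all 8 arrays, the 3 largest in each direction on fewer arrays, up to 4 called members per list, the top 3 per dependence test, lineage markers, Cdk9, Igfbp4, Drc1 and Dusp2. The members and lists were chosen with earlier results of these data known. A fold for a gene seen at one dose only is written as at least that size. The dimmer group kept its measured signal, or took the lowest signal well above background on an array where that was higher. Such a fold is a rough bound, since it rests on signals not told apart from background. Mitochondrially encoded RNAs had no probe with a symbol. Promoters came from RefSeq (GRCm38.p6). The alternatives were other scalings, background corrections, filters, probe summaries, fits without the block or with DMSO arrays, single slides, and leaving out each context. The number of arrays limits the precision. Some members of these lists are not reported here.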

Additional observations from a re-analysis of the deposited data

Results flagged for a closer look

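Of 103 named genes called between the doses, 5 had a pair far from the other 3 by Dixon's test, where chance gives about 1 in 20. Slco4a1 differed by 3.27 in Th2 unstimulated cells, Sesn1 by 0.70 and Bcl2 by 1.05 in the same context. Cdc6 differed by 1.30 in Th1 reactivated and Wdr43 by 0.60 in Th2 reactivated cells. The direction was the same in 4 of 4 pairs for each of these genes.

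The dose difference depended on reactivation for 53 genes. The contrast, reactivated minus unstimulated, was -4.48 for Ccl4, -4.20 for Nfkbid and -4.10 for Ptgs2 (limma's adjusted p = 0.0342, 0.0213 and 0.0213). Ccl4 was well above background on 2 of the 4 unstimulated arrays and Ptgs2 on none, so the size of these contrasts is uncertain. Over the alternative settings that gave a value it ran from -5.59 to -3.73 for Ccl4 (called in 9 of 14), from -4.94 to -3.92 for Nfkbid (14 of 15) and from -6.13 to -2.85 for Ptgs2 (11 of 14).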

How the results depend on the processing

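The counts of genes that differed between the doses, 2037 in all with 1446 higher and 591 lower, depended on scaling, on the context block and on the number of pairs. Median centring gave 1291 genes in all with 547 higher and an all-gene median of -0.077. Spike-in centring gave 359 higher and 1117 lower at a median of -0.20, and loess with a spike-in shift 665 and 1643 at a median of -0.155. The scanner software's ratio gave 908 higher. With no context block 241 genes were called, 201 higher and 40 lower, and with the 4 DMSO arrays in the fit 242, 196 higher and 46 lower. In these 2 fits every gene called had also been called with the block. Within the Th1 slide 672 genes were called, 515 higher and 157 lower, and within the Th2 slide 1030, 851 higher and 179 lower. The rule of 2-fold in 4 of 4 pairs gave 72 genes, 58 higher and 14 lower. Leaving out 1 context gave 1011 to 1601 genes, 754 to 1212 higher and 257 to 389 lower, and an all-gene median of 0.02 to 0.05.

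The 53 genes whose dose difference depended on reactivation became 81 with median centring, 582 with spike-in centring, 33 with loess and a spike-in shift, 32 in the sample channel alone, 0 with the scanner software's ratio, 10 with no background correction, 11 with a normexp offset of 16, 2 among genes above background on all 8 arrays, 28 with the mean of a gene's probes, and 2 to 158 when 1 context was left out. For cell type, median centring gave 196, loess with a spike-in shift 17, and leaving out 1 context 0. The reference channel gave 1 to 3 genes when 1 context was left out. Among the 103 named genes called, 1575 of 2046 alternative values kept direction and threshold, 470 kept direction only, and 1 turned its sign, that of Hk2, at 0.15 with the scanner software's ratio. For the 24 genes with the largest differences, 452 of 480 values kept both and 0 turned. The cause of these changes was not tested. Each context had 1 array per dose, and neither dose nor reactivation could be told apart from slide column. The size of a difference is uncertain for genes near background.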
